A study of Mus musculus with 8 samples.

Results

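The genes described here are 10 genes of the unfolded protein response and of protein folding in the endoplasmic reticulum (ER). They are Atf4, Ddit3, Trib3, Xbp1, Creb3l1, Hspa5, Pdia4, Dnajb9, Sdf2l1 and Herpud1. They were taken by name from a table of FPKM (fragments per kilobase of gene, scaled to sequencing depth) for 54532 gene entries. The names match 11 entries, since Ddit3 has a second, 105-base entry that is listed at 0 in all 8 libraries. The other 10 entries, 1 for each gene, were all tested.

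All cells were MICFs, cardiac fibroblasts taken from the infarcted hearts of adult male C57BL/6 mice in a preparation that the study says also held macrophages, and all carried doxycycline-inducible lentiviruses. These expressed MGT (Mef2c, Gata4 and Tbx5 in 1 construct), Myocd, Sall4 and eGFP, a combination the labels call MGTMyoS overexpression. In vivo samples are eGFP+ cells sorted from infarcted mouse hearts into which the MICFs had been transplanted, and in vitro samples are eGFP+ cells from culture. Both were sorted 1 week and 2 weeks later, with 2 libraries in each of the 4 groups, and all received doxycycline. The hosts also received the immunosuppressants tacrolimus, methylprednisolone and mycophenolate mofetil. The culture medium held serum, the TGF-β receptor inhibitor SB431542 and the JAK inhibitor baricitinib. The heart, these drugs and this medium therefore cannot be told apart in any in vivo against in vitro comparison. A group without the reprogramming factors was not analysed here. The sources used here do not say whether the 2 libraries of a group came from separate animals or wells, so p-values measure only the spread between these libraries, which may be technical. The study kept part of the infected MICFs in culture, and which in vivo and in vitro libraries share a batch of cells is not given.

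The ER is where a cell folds the proteins it secretes, and fibroblasts that build scar pass large amounts of procollagen through it. Unfolded protein there is sensed by PERK, IRE1 and ATF6. PERK raises translation of Atf4 mRNA, ATF4 in turn drives amino acid genes, Ddit3 and Trib3, IRE1 splices Xbp1 mRNA, and ATF6 and XBP1 drive the genes of chaperones and of ER-associated degradation. Creb3l1 (OASIS) is a membrane-bound factor related to ATF6 that is known for driving collagen genes in bone. The question asked of these data is how such genes stood to the collagen mRNA that the same cells carried.

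Fragments on genes numbered 12304242 to 14546904 per library. Over the 10 genes, the fewest fragments in a library were 55, for Trib3, and the most were 27410, for Hspa5. Markers of other cell types moved with the groups, and their part in the results was not tested. Summed FPKM of 10 macrophage markers was 1412 to 1692 in the hearts and 1727 to 2026 in culture at 1 week. At 2 weeks the sum was 1029 to 1217 in the hearts and 2024 to 2355 in culture. None of those 10 markers was at 0 in any group. By the rule given below, 1 of the 10 was called higher in vivo at 1 week and 5 were called lower at 2 weeks. For 8 cardiomyocyte markers the sum was 10.5 to 13.2 in the hearts and 111 to 123 in culture at 1 week, and it was 17.9 to 25.8 and 556 to 630 at 2 weeks. Of these 8, 6 were called lower in vivo at each week, while 1 was called higher at 1 week and 2 at 2 weeks. Summed FPKM of 8 endothelial markers lay at 68.5 to 86.4 in vivo and at 10.8 to 43.9 in vitro, that of 6 mesothelial markers at 13.1 to 31.1 in vivo and at 234 to 487 in vitro, and that of 8 B and plasma cell markers at 8.99 to 32.1 over all libraries, with Tnfrsf17, Ms4a1 or Mzb1 listed at 0 in some groups. The 7 fibroblast markers that are not collagens summed to 3232 to 3398 in vivo and to 653 to 854 in vitro, and 3 of the 7 were higher in vivo at each week by the rule given below. These 7 did not move alike. Postn was the furthest upward, at 3.46 at 1 week and 3.56 at 2 weeks on the log2 scale. The lowest value at 1 week was -0.75, and 1 marker was lower in vivo at that week by an adjusted p under 0.01 alone. The fibroblast receptor gene Pdgfra differed by 0.06 ± 0.06 at 1 week on the log2 scale, and by 0.20 ± 0.06 at 2 weeks, and neither passed the test. In a bulk library, fewer cells of a type and less RNA per cell cannot be told apart.

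Collagen load is here the summed FPKM of Col1a1, Col1a2 and Col3a1, which encode the chains of fibrillar collagens I and III. The load was 9168 and 10103 in the in vivo libraries at 1 week, and 8273 and 6988 at 2 weeks. It was 2569 and 2516 in the in vitro libraries at 1 week, and 1358 and 1320 at 2 weeks. The 4 groups did not overlap. The in vivo mean was 3.79 times the in vitro mean at 1 week and 5.70 times at 2 weeks. Over all 8 libraries the mean log2 load was 2.21 higher in vivo. The exact two-sided permutation test of 4 libraries against 4, with the weeks pooled, gave p = 0.0286, the smallest it can give. The study had already reported Col1a1 and Col3a1 as higher in vivo in these samples, so this p-value is not independent support. From 1 to 2 weeks the mean load went to 0.792 of its level in vivo and to 0.527 of its level in vitro. These 3 genes took 5.70% to 7.98% of all fragments in vivo and 1.36% to 2.73% in vitro.

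The chaperones Hspa5 and Pdia4 were higher in vivo at both weeks, the ATF4-arm genes Trib3 and Ddit3 were lower in vivo at 1 week and at 2 weeks respectively, and Atf4 mRNA itself passed no test between hearts and culture except under other scalings. Genes were tested by limma on log2(FPKM + 0.1), and one was counted as called where its Benjamini-Hochberg adjusted p was below 0.01 and its log2 fold change above 1 or below -1. Fold changes below are on that scale, with standard errors from the fit. At 1 week, 1 of the 10 genes was called higher in vivo and 1 lower, where 7.79% and 5.07% of the 15708 genes tested were called. At 2 weeks, 2 of the 10 were called higher and 1 lower, where 9.02% and 8.05% of all genes tested were called. These counts stand near the background shares. By adjusted p alone, with no limit on the fold change, 6 of the 10 were higher at 1 week and 1 lower, against 14.7% and 12.4% of all genes. By the same rule 5 were higher at 2 weeks and 1 lower, against 16.9% and 17.3% of all genes. Over the 10 genes the median of the log2 fold changes was 0.50 at the earlier time and 0.35 at the later, against -0.01 and -0.00 over all genes tested.

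The deposited FPKM already hold a scaling between libraries, and this matters for small differences. Without that scaling the median over all genes tested moved to -0.34 at 1 week and -0.33 at 2 weeks, and 36.7% and 32.9% of all calls were higher in vivo, in place of 60.6% and 52.8%. In these unscaled values no member was called higher in vivo at either week, and by adjusted p alone the earlier time gave 2 higher and 3 lower, the later time 3 and 3. The scaling shifts all genes of a library alike, so values measured from the median of all genes are nearly the same with and without it. By quantile normalization, too, no member was called higher at either week. Measured from the median of all genes, Hspa5 then stood at 0.62 and 0.76, in place of 1.23 and 1.16, and Atf4 at -0.22 and -0.23, in place of 0.02 and -0.06. Trib3 at 1 week and Ddit3 at 2 weeks were called lower with quantile normalization, without the scaling and by voom on fragments, as they were by limma.

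**Figure D1:**
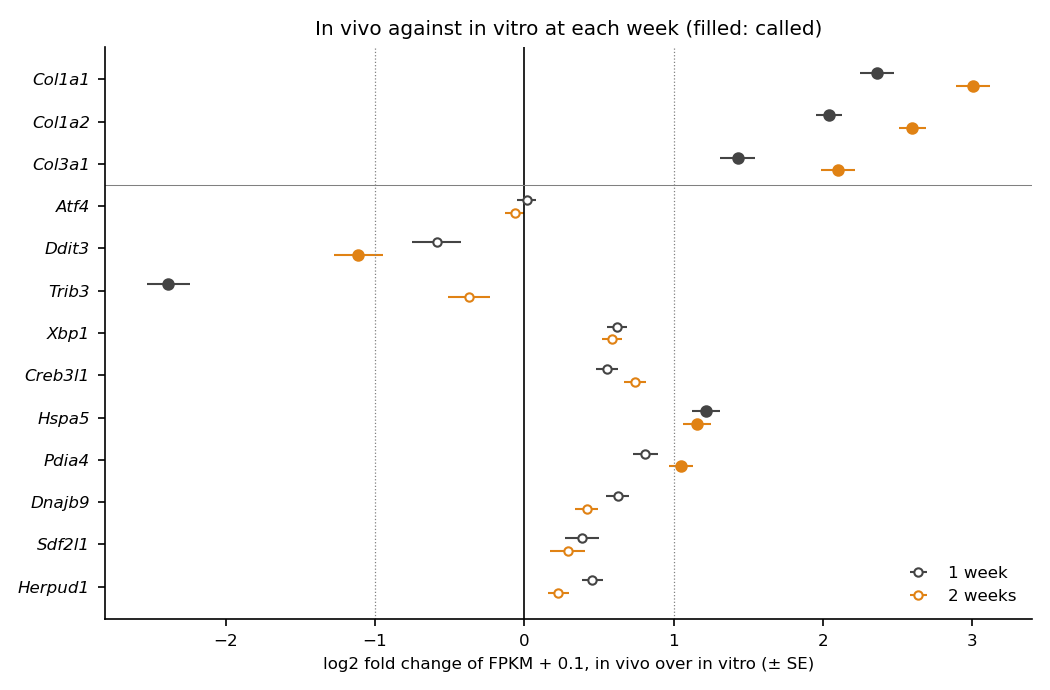
Log2 fold change of FPKM + 0.1, in vivo over in vitro, on the x axis for the 3 collagen genes and the 10 genes, at 1 week (grey) and 2 weeks (orange). Points are estimates from limma with bars of 1 standard error, filled points are called, and dotted lines mark a log2 fold change of -1 and 1. The collagen genes lie at 1.43 or above, Hspa5 at 1.22 and 1.16, Atf4 near 0, and Trib3 at -2.38 and -0.37.

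Hspa5 (chr2:34771970-34777547, plus strand, mm10) encodes BiP, the main Hsp70 chaperone of the ER and the protein that holds the stress sensors inactive. It had the highest FPKM of the 10 genes. At 1 week its FPKM was 416 and 498 in the in vivo libraries and 197 and 194 in the in vitro libraries. At 2 weeks it was 412 and 399 in vivo against 176 and 189 in vitro. The in vivo libraries stood above all in vitro libraries, with no overlap at either week. The share of all genes tested that part the in vivo from the in vitro libraries was not counted. The groups also did not overlap for Atf4, Herpud1 and Trib3 at 2 weeks, Ddit3 at 1 week and Sdf2l1 at both weeks. Yet none of these differences passed the test. Hspa5 was higher in vivo by 1.22 ± 0.09 at 1 week (limma, adjusted p = 9.03e-05) and by 1.16 ± 0.09 at 2 weeks (adjusted p = 9.04e-05). Taken without the scaling between libraries the values were 0.88 and 0.82, and with quantile normalization 0.56 and 0.73, all with an adjusted p under 0.01 but under the limit on the fold. Between 1 and 2 weeks it differed by -0.16 ± 0.09 in vivo and by -0.10 ± 0.09 in vitro, and neither passed the test.

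The order of the groups in Hspa5 was that of the collagen load, but its range was narrower. Per 1000 FPKM of collagen load, Hspa5 stood at 47.3 ± 2.78 FPKM (SD, n = 2) in vivo at 1 week and at 53.5 ± 5.15 at 2 weeks. The same ratio was 76.7 ± 0.349 in vitro at 1 week and 136 ± 9.58 at 2 weeks. Between groups, such a ratio is lower at the higher load wherever the gene differs by a smaller factor than the load. It fell throughout as the load rose for Hspa5, Pdia4, Xbp1, Dnajb9, Herpud1, Ddit3 and Atf4. It did not between the weeks in vivo for Creb3l1 and Sdf2l1, nor between the weeks in vitro for Trib3.

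Some promoters of these genes hold the known response elements, and they are shown because chaperone genes are known for them. RefSeq promoters of GRCm38.p6, each covering 250 bases before to 50 bases after the gene start, were found for 9 of the 10 genes, all but Creb3l1. They were searched on both strands for 4 motifs. These were the ER stress response element ERSE (CCAAT, 9 bases of any kind, then CCACG), ERSE-II (ATTGG, 1 base of any kind, then CCACG), the core of the unfolded protein response element (UPRE, TGACGTG), and TGCATCA as the core of the CARE element that ATF4 binds. Of 32851 mouse promoters of the same length, 0.119% held the ERSE letters, 0.0365% those of ERSE-II, 2.01% the UPRE core and 3.15% the CARE core. Among the members, only the promoters of Hspa5 and Herpud1 held a match. No match was found in those of Atf4, Xbp1, Ddit3, Pdia4, Dnajb9, Sdf2l1 and Trib3. The letters had to match exactly within these bases, so elements that differ by a base or lie further away were not looked for. The 4 matches among the members are printed with 8 bases on either side and do not overlap each other's motifs, 5′ to 3′ on the plus strand, with the motif letters in capitals. The Hspa5 matches start 65 and 157 bases before the RefSeq gene start, and the Herpud1 matches 52 and 111 bases before it.
Hspa5 ERSE, chr2:34772017-34772051: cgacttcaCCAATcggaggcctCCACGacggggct
Hspa5 UPRE core, chr2:34771925-34771947: cgtagcaaTGACGTGagttgcgg
Herpud1 ERSE-II, chr8:94386369-94386395: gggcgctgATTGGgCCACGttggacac
Herpud1 CARE core, chr8:94386310-94386332: cggcgggtTGCATCAgcccgcac

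The same exact ERSE letters were in promoters of 37 gene symbols, of which 18 were tested. That set was chosen by sequence, after values of some of its genes had been seen, and it is given with no test. Of these 18 genes, 10 were higher in vivo at 1 week by adjusted p alone, which is 55.6% against the 14.7% of all genes, while 2 weeks gave 9 higher, 50% against 16.9%, and 1 lower. The medians of their log2 fold changes were 0.60 and 0.38. The 9 genes of the set that are members, on a list below or on a marker list above are all ER folding or degradation genes. Derl3 is among the 9 only as 1 of the B and plasma cell markers, with group means of 0.480 to 1.08 FPKM. Their ERSE letters are printed on the strand that reads CCAAT first, with fixed letters in capitals, and Hsp90b1 has 2 matches.
Hspa5, chr2:34772025-34772043: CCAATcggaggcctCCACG
Calr, chr8:84847075-84847093: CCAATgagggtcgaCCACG
Canx, chr11:50325800-50325818: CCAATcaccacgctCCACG
Creld2, chr15:88819520-88819538: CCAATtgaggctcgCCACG
Derl3, chr10:75893242-75893260: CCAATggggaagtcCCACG
Dnajc3, chr14:118937827-118937845: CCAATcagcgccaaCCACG
Hsp90b1, chr10:86705638-86705656: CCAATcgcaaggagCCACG
Hsp90b1, chr10:86705533-86705551: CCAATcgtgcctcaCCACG
Pdia6, chr12:17266491-17266509: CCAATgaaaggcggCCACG
Syvn1, chr19:6046532-6046550: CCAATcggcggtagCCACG

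Of those 9 genes, 7 were higher by adjusted p alone at each week, and Canx and Derl3 were not. Of the other 9 tested genes with the element letters, 3 were higher at 1 week and 2 at 2 weeks. Creld2, an ER protein induced by stress, had a mean of 18.7 FPKM in vitro and of 58.7 in vivo at 1 week. Calr, the lectin chaperone calreticulin, had means of 254 and 495. Canx, its membrane-bound relative calnexin, had means of 103 and 102, with the same element letters in its promoter. The Creld2 match lies at the same bases as a match in the promoter of Alg12, a gene of N-glycan assembly on the opposite strand, and Alg12 was 0.71 ± 0.10 higher in vivo at 1 week (limma, adjusted p = 0.00116). Outside the lists, Spats2l, named after its values were seen, was also called at 1 week, at 1.26 ± 0.14.

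Pdia4 (chr6:47796141-47813430, minus strand) encodes ERp72, a disulfide isomerase of the ER. The 1-week libraries had 115 and 136 FPKM in vivo against 72.5 and 69.7 in vitro. The 2-week libraries had 115 and 115 in vivo against 55.3 and 56.2 in vitro. Again every in vivo library stood above every in vitro library. Pdia4 was higher in vivo by 0.81 ± 0.08 at 1 week (limma, adjusted p = 0.000311), under the limit on the fold, and was called at 2 weeks at 1.05 ± 0.08 (adjusted p = 7.51e-05). That call was lost at 0.95 with quantile normalization and at 0.72 without the scaling between libraries. The groups stood in the order of the load, with the 2 in vivo groups overlapping. Per 1000 FPKM of load, Pdia4 was 13.0 ± 0.619 in vivo against 28.0 ± 0.382 in vitro at 1 week, and 15.2 ± 1.84 against 41.6 ± 1.31 at 2 weeks.

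Sdf2l1 (chr16:17130138-17132383, minus strand) encodes an ER protein that works with BiP and its partners. Its FPKM at 1 week was 34.0 and 42.5 in the hearts, against 30.4 and 27.7 in culture. The values at 2 weeks were 27.5 and 30.9 in the hearts, against 23.8 and 23.9 in culture. The groups of a week did not overlap, yet neither difference passed the test, with 0.39 ± 0.11 at 1 week (limma, adjusted p = 0.0317) and 0.29 ± 0.11 at 2 weeks (adjusted p = 0.0737). The value at 2 weeks turned to -0.04 in the unscaled values. The group means followed the order of the load, with in vivo at 2 weeks and in vitro at 1 week overlapping.

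Dnajb9 (chr12:44205559-44210326, minus strand) encodes ERdj4, a BiP co-chaperone and a known XBP1 target. At 1 week its FPKM was 34.1 and 38.8 in the in vivo libraries and 23.6 and 23.5 in the in vitro libraries. At 2 weeks it was 38.2 and 40.9 in vivo against 30.1 and 29.0 in vitro. All in vivo libraries lay above all in vitro libraries, and the highest mean was in vivo at 2 weeks rather than at 1 week. Dnajb9 was higher in vivo by 0.63 ± 0.08 at 1 week (limma, adjusted p = 0.00077) and by 0.42 ± 0.08 at 2 weeks (adjusted p = 0.00379), both under the limit on the fold. The call at 2 weeks by p was also lost without in vivo 2-week replicate 2 and without either in vitro library of that week, at adjusted p = 0.0171 to 0.0278. In the unscaled values the differences were 0.28 and 0.09, and neither passed.

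**Figure D2:**
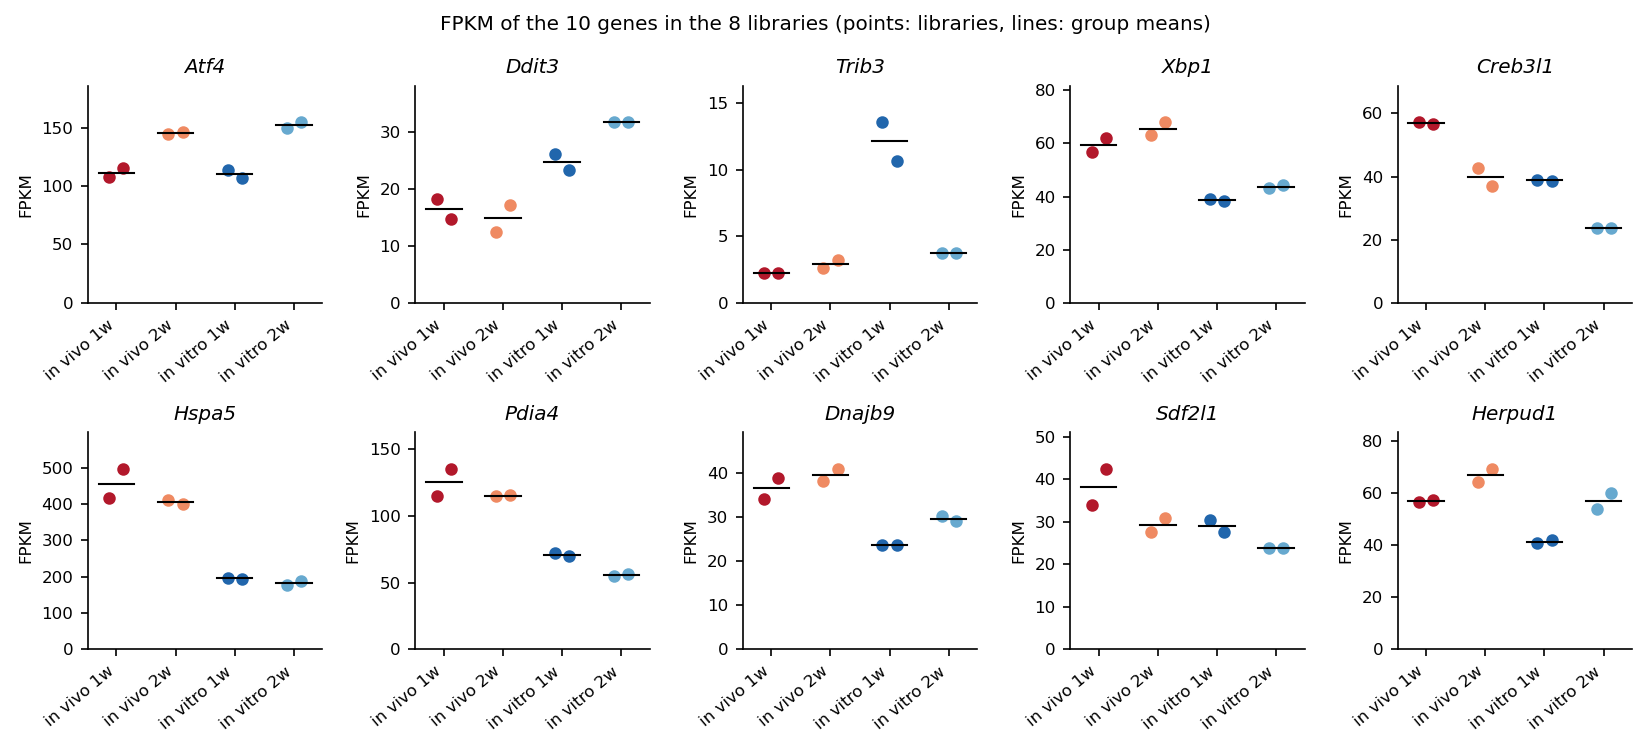
FPKM on the y axis, from 0, of each of the 10 genes in the 4 groups on the x axis. Points are the 2 libraries of a group and black lines are group means. Hspa5, Pdia4, Xbp1 and Dnajb9 lie higher in every in vivo library (red, orange) than in any in vitro library (dark and light blue). Ddit3 and Trib3 lie lower, and Atf4 is parted by week. The share of all genes tested that part the in vivo from the in vitro libraries was not counted.

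Herpud1 (chr8:94386438-94395377, plus strand) encodes a membrane protein of the complex that passes misfolded proteins out of the ER for degradation. The 1-week libraries had 56.3 and 57.1 FPKM in vivo against 40.7 and 42.0 in vitro. The 2-week libraries had 64.1 and 69.3 in vivo against 53.9 and 60.1 in vitro. It was higher in vivo by 0.46 ± 0.07 at 1 week (limma, adjusted p = 0.00244), under the limit on the fold, and by 0.23 ± 0.07 at 2 weeks (adjusted p = 0.035), which did not pass. Leaving out any 1 library of the 1-week groups put the first at adjusted p = 0.0133 to 0.0183. In the unscaled values the differences were 0.11, which did not pass, and -0.10. In culture Herpud1 was higher at 2 weeks than at 1 week by 0.46 ± 0.07 (adjusted p = 0.00585), while the 3 collagen genes there were lower, at -0.78 to -1.20 with an adjusted p under 0.01. That rise in Herpud1 kept an adjusted p under 0.01 in 2 of 8 fits with 1 library left out, without either in vivo 2-week library, and reached 0.038 in the others. With quantile normalization it did not pass either, at 0.29 (adjusted p = 0.0213). The in vitro libraries at 2 weeks overlapped the in vivo libraries at 1 week, so Herpud1 did not take the order of the load. An antisense gene, Gm15890, overlaps it by 535 bases and was listed at 0.199 FPKM at most, and whether the counting used strand is not given in the sources used here.

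Xbp1 (chr11:5520659-5525893, plus strand) encodes the factor that IRE1 switches on by splicing its mRNA. The values are sums over a gene, so spliced and unspliced Xbp1 cannot be told apart. Its FPKM at 1 week was 56.9 and 62.2 in the hearts, against 39.0 and 38.2 in culture. The values at 2 weeks were 63.2 and 68.0 in the hearts, against 43.0 and 44.2 in culture. Every in vivo library stood above every in vitro library, and the 4 groups did not overlap. Xbp1 was higher in vivo by 0.62 ± 0.07 at 1 week (limma, adjusted p = 0.000422) and by 0.59 ± 0.07 at 2 weeks (adjusted p = 0.000425), under the limit on the fold at both. In the unscaled values the differences were 0.28 and 0.26, and neither passed. Its group order, in vivo at 2 weeks, in vivo at 1 week, in vitro at 2 weeks and in vitro at 1 week, was that of Dnajb9 and not that of the load.

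Creb3l1 (chr2:91982328-92024502, minus strand) was the only one of the 10 that was lower at 2 weeks than at 1 week in both settings by adjusted p alone. At 1 week its FPKM was 57.2 and 56.7 in the in vivo libraries and 39.0 and 38.6 in the in vitro libraries. At 2 weeks it was 42.8 and 37.0 in vivo against 23.8 and 23.7 in vitro. From 1 to 2 weeks it differed by -0.52 ± 0.07 in vivo (limma, adjusted p = 0.00697) and by -0.71 ± 0.07 in vitro (adjusted p = 0.00144). It was higher in vivo by 0.55 ± 0.07 at 1 week (adjusted p = 0.00121) and by 0.74 ± 0.07 at 2 weeks (adjusted p = 0.000248). All 4 differences were under the limit on the fold. The time difference in vivo kept an adjusted p under 0.01 in 1 of 8 fits with 1 library left out, that without in vivo 2-week replicate 1, and reached 0.0489 in the others. In vitro it was lost without any 1 of the 4 in vitro libraries, at 0.0127 to 0.0146. The difference between hearts and culture at 1 week was 0.21 in the unscaled values, which did not pass, and it missed the threshold at adjusted p = 0.0104 without in vivo 1-week replicate 1 and 0.0102 without in vitro 1-week replicate 2. From 1 to 2 weeks the collagen genes differed by -0.11 to -0.56 in vivo, where none passed, and by -0.78 to -1.20 in vitro.

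The group means of Creb3l1 followed the load, with in vivo at 2 weeks and in vitro at 1 week overlapping. Per 1000 FPKM of load, Creb3l1 stood at 5.93 ± 0.442 FPKM (SD, n = 2) in vivo at 1 week and at 5.23 ± 0.0821 at 2 weeks. In culture the ratio was 15.3 ± 0.121 at 1 week and 17.8 ± 0.315 at 2 weeks. The ratio was higher in culture at both weeks. In culture over the same week, the ratio of Hspa5 went from 76.7 to 136 and that of Xbp1 from 15.2 to 32.6. In vivo the ratio of Hspa5 moved about as little as that of Creb3l1, from 47.3 to 53.5, and that of Sdf2l1 from 3.96 to 3.87.

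**Figure D3:**
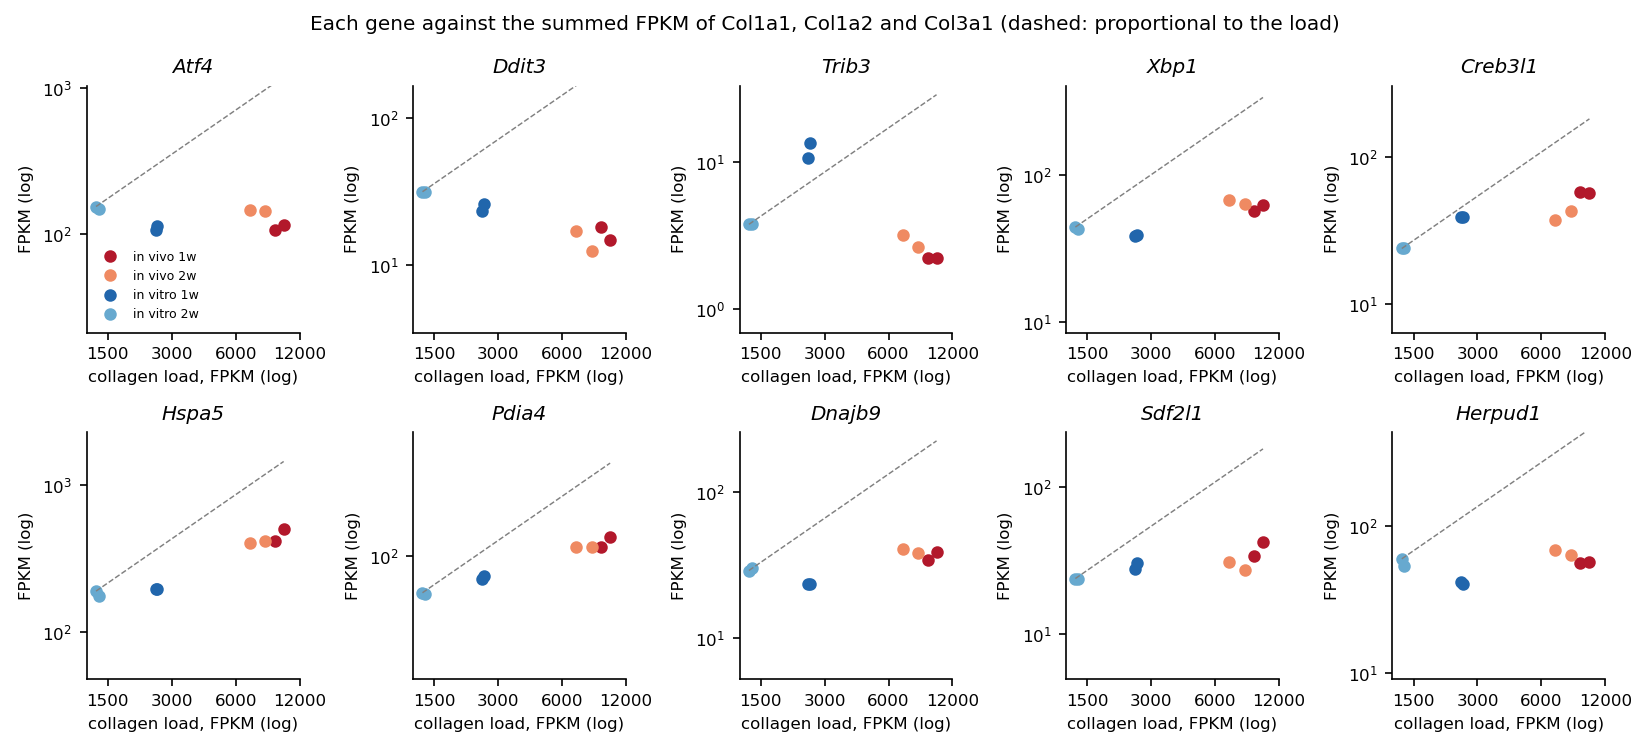
FPKM of each gene (y axis, log scale) against collagen load (x axis, summed FPKM of 3 collagen genes, log scale) in the 8 libraries, coloured by group. The dashed line starts at the library of lowest load and marks a level proportional to the load. In each panel the in vivo libraries, with loads of 6988 to 10103, lie below that line. At 1 week in vitro, Trib3 lies above the line, and Creb3l1 lies nearest to it of the other genes.

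Atf4 (chr15:80255184-80257541, plus strand) encodes the transcription factor of the PERK arm, whose output is set largely by translation, which these libraries do not measure. The 1-week libraries had 107 and 115 FPKM in vivo against 114 and 107 in vitro. The 2-week libraries had 145 and 146 in vivo against 149 and 155 in vitro. At 1 week the groups overlapped. The difference between hearts and culture was 0.02 ± 0.06 at 1 week (limma, adjusted p = 0.864) and -0.06 ± 0.06 at 2 weeks (adjusted p = 0.436). Under other scalings Atf4 was lower in vivo by adjusted p alone at both weeks. In the unscaled values it stood at -0.33 (limma, adjusted p = 0.00414) and -0.40 (adjusted p = 0.00155), and with quantile normalization at -0.29 (adjusted p = 0.00522) and -0.26 (adjusted p = 0.00697). By voom the values were 0.00093 and -0.06, and neither passed. Measured from the median of all genes, Atf4 stood at 0.02 and -0.07 in the unscaled values, so nearly all of that shift was shared by all genes. With quantile normalization it stood at -0.22 and -0.23 from that median. On leaving out replicate 2 of either 1-week group the 1-week value in the deposited FPKM was -0.03. Atf4 was higher at 2 weeks than at 1 week by 0.46 ± 0.06 in vitro (adjusted p = 0.00355), which was lost without any 1 of the 4 in vitro libraries, at 0.0141 to 0.0303, and at 0.21 with quantile normalization. In vivo the difference was 0.39 ± 0.06 (adjusted p = 0.0104), which missed the threshold.

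Ddit3 (chr10:127290774-127296288, plus strand) encodes CHOP, the factor tied to cell death under lasting ER stress. Its FPKM at 1 week was 18.2 and 14.7 in the hearts, against 26.1 and 23.2 in culture. The values at 2 weeks were 12.4 and 17.1 in the hearts, against 31.7 and 31.6 in culture. Every in vivo library was below every in vitro library, opposite to Hspa5. The difference was -0.59 ± 0.16 at 1 week (limma, adjusted p = 0.026), which did not pass, although it did by adjusted p alone by voom, at -0.61 (adjusted p = 0.00305), and in the unscaled values, at -0.93 (adjusted p = 0.00413). Ddit3 was called lower in vivo at 2 weeks, at -1.11 ± 0.16 (adjusted p = 0.00141). That call rested on single libraries. It was lost without in vivo 2-week replicate 1, at -0.88, and without either in vitro library of that week, at -1.11 with adjusted p = 0.0106 and 0.0111. Ddit3 overlaps Mars by 68 bases and Gm4189 by 15 bases, both on the other strand.

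Trib3 (chr2:152337422-152344032, minus strand) encodes a pseudokinase induced by ATF4 and CHOP that feeds back on both. At 1 week its FPKM was 2.21 and 2.24 in the in vivo libraries and 13.6 and 10.7 in the in vitro libraries. At 2 weeks it was 2.63 and 3.20 in vivo against 3.78 and 3.77 in vitro. The 1-week culture stood far above the other 3 groups. The in vivo against in vitro difference was -2.38 ± 0.14 at 1 week (limma, adjusted p = 3.18e-05), which was called, and -0.37 ± 0.14 at 2 weeks (adjusted p = 0.0695). From 1 to 2 weeks in culture it differed by -1.65 ± 0.14 (adjusted p = 0.000771), also called, and in vivo by 0.37 ± 0.14 (adjusted p = 0.132). The difference between the weeks in the in vivo against in vitro contrast was 2.01 ± 0.20 (adjusted p = 0.00382). That call was lost on leaving out any 1 library of the 1-week groups or of the 2-week culture, at adjusted p = 0.0118 to 0.0222, with the value between 1.84 and 2.19. With the replicate block it was lost at adjusted p = 0.0118.

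Across the weeks few of the 10 genes passed. In vivo, limma called 0 of the 10 higher and 0 lower, against 1.23% and 0.949% of all genes, 0 and 0 by voom, and 3 and 2 at an unadjusted p under 0.05. By adjusted p alone 0 were higher and 1, Creb3l1, lower, against 2.85% and 1.85%. In vitro, 0 were called higher and 1, Trib3, lower, against 2.76% and 1.05%, with 0 and 1 by voom and 4 and 4 at an unadjusted p under 0.05. By adjusted p alone 2 were higher in vitro, Atf4 and Herpud1, and 2 lower, Creb3l1 and Trib3, against 6.16% and 3.62%. In the difference between the weeks, 1 was called upward, Trib3, and 0 downward, against 0.573% and 1.15%. By voom the same 2 counts were 1 and 0, and at an unadjusted p under 0.05 they were 1 and 0.

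As a description of likeness, Pearson correlations of log2 FPKM over the 8 libraries were taken between each gene and 7108 protein-coding genes whose FPKM averaged 5 or more. The 8 points share their groups and the scaling between libraries. Nearest to Hspa5 were Srpr, Rpn1 and Pdia3, at 0.997 to 0.998, which encode the signal recognition particle receptor, a subunit of the oligosaccharyltransferase and a disulfide isomerase. Nearest to Pdia4 were Hsp90b1, Heg1 and Plod2 at 0.997 to 0.999, the first being the ER Hsp90 and the last a collagen lysyl hydroxylase. Nearest to Trib3 were Lars, Adamts5 and Phgdh at 0.983 to 0.984, which include a tRNA synthetase and the first enzyme of serine synthesis. Xbp1 lay nearest to Cyb561, Gpsm1 and Steap3 at 0.995 to 0.998, and Atf4 to Arl4d, Vps28 and Map1lc3a at 0.988 to 0.993.

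The rest of the secretory pathway was described from 7 lists of other genes, whose counts are to be read against the shares of all genes given above, 7.79% higher and 5.07% lower at 1 week and 9.02% and 8.05% at 2 weeks for calls, and 14.7% and 16.9% higher by adjusted p alone. Among 24 other ER chaperones and folding enzymes, 3 were called higher in vivo and 1 lower at 1 week, and 5 higher at 2 weeks, with 0 lower by limma and by voom and 2 at an unadjusted p under 0.05. The calls were 12.5% higher and 4.17% lower at 1 week and 20.8% higher at 2 weeks. By adjusted p alone 12 and 13 were higher, 50% and 54.2%, and the list median was 0.38 and 0.61. Creld2 was higher by 1.63 and 1.90, and Manf, a secreted ER stress protein, by 1.17 and 1.35. Pdia6, a disulfide isomerase, was higher by 1.15 and 1.55. Pdia5 was called at 2 weeks only, at 1.44, and the difference of 0.60 between the weeks did not pass (adjusted p = 0.0444). Ero1l, the oxidase that recharges disulfide isomerases, went the other way, at -1.06 at 1 week, a call lost without in vivo 1-week replicate 2 and with a pseudocount of 1. In the unscaled values, Manf at 0.83 and Pdia6 at 0.81 were under the fold limit at 1 week, and so was Pdia6 by quantile normalization, at 0.96.

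Of 16 sensors and regulators of the response, 1 was called higher in vivo at 1 week and 2 at 2 weeks, with 0 lower by limma and by voom and 4 and 3 at an unadjusted p under 0.05. The shares called higher, 6.25% and 12.5%, stand near those of all genes. By adjusted p alone 5 were higher at each week, 31.2%, and the medians were 0.23 and 0.29. Creb3l2, the close relative of Creb3l1 that drives secretory genes in cartilage, was at 52.9 and 59.1 FPKM in vivo and 15.5 and 15.7 in vitro at 1 week. It was higher in vivo by 1.83 ± 0.07 at 1 week and 1.86 ± 0.07 at 2 weeks (limma, adjusted p = 4.2e-06 and 3.38e-06), further upward than any of the 10 genes at those weeks. Eif2ak3, which encodes PERK, was higher by 0.52 at 1 week and called at 2 weeks (limma, adjusted p = 4.19e-05), a call lost without the scaling between libraries and with a pseudocount of 1, at 0.77 and 0.98. Ern1 (IRE1) stood at 0.29 and 0.43, and Atf6 at -0.35 and -0.24, and neither passed.

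Genes for ER-associated degradation had the list medians nearest to 0. Limma and voom called 0 of 20 in either direction at either week, with 6 higher and 4 lower at an unadjusted p under 0.05 at 1 week and 7 and 3 at 2 weeks. The medians were 0.12 and 0.13. Os9, a lectin that picks out misfolded glycoproteins, was 0.74 and 0.54 higher in vivo, and Vcp, the ATPase that pulls them from the membrane, differed by -0.31 and -0.38, all with an adjusted p under 0.01.

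The list of 33 ATF4 and amino acid response genes, of which 32 were tested, had medians below 0. At 1 week 12 were called lower in vivo and 3 higher, 37.5% and 9.38% of the list, with a median of -0.58. At 2 weeks 5 were called lower and 4 higher, 15.6% and 12.5%, with a median of -0.25. Chac1, a glutathione-degrading enzyme, was called lower in vivo, at -2.61 and -3.07, as was Vldlr, a lipoprotein receptor, at -2.07 and -1.57. Asns, asparagine synthetase, had FPKM of 6.54 and 6.96 in vivo against 23.6 and 29.0 in vitro at 1 week. At 2 weeks the values were 5.03 and 5.86 against 8.14 and 8.58. Its differences were -1.94 and -0.61, and like Trib3 it was called lower in culture at 2 weeks than at 1 week, at -1.64 ± 0.12 (limma, adjusted p = 0.00044). Stc2, a secreted glycoprotein, was higher in vivo by 1.42 and 3.08, and Pycr1, an enzyme of proline synthesis, by 0.98 and 2.30, the first of which was under the fold limit. In the difference between the weeks, 6 of the 32 were called upward (Asns, Atf5, Phgdh, Shmt2, Slc7a5 and Stc2) and 1 downward (Atf3). With 1 library left out these counts were 0 to 3 and 0 to 1, whichever library it was. The upward count was 2 with no filter on low values, 1 with no variance trend and 2 with the replicate block.

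Of 27 genes of the translocon and of N-glycosylation, which act as proteins enter the ER, 14 were higher at 1 week and 13 at 2 weeks by adjusted p alone, 51.9% and 48.1%, with medians of 0.33 and 0.40. Of these 27, 1, Tram2, was called at each week, 3.70%, which is below the share of all genes. Of 30 genes of COPII and ER-Golgi transport, which act after folding, 19 and 18 were higher by adjusted p alone, 63.3% and 60.0%, with medians of 0.44 and 0.48. Of these 30, 1 and 3 were called higher, 3.33% and 10%. The KDEL receptor gene Kdelr3, which returns BiP and other residents to the ER, was called at both weeks, at 1.24 and 1.76. Lman1 and Tmed3, a cargo receptor and a p24 family member, were called at 2 weeks, at 1.16 and 1.11. In the unscaled values, Tram2 at both weeks, Kdelr3 at 1 week and Lman1 and Tmed3 at 2 weeks were under the fold limit, at 0.74 to 0.90, and a pseudocount of 1 put Tram2 at 0.96 and 0.98.

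Genes that fold and modify collagen in the ER had the highest list medians. Of 20, 7 were called higher in vivo at 1 week and 10 at 2 weeks, 35% and 50%, with medians of 0.84 and 1.06, against which the medians of the 10 members were 0.50 and 0.35. Limma and voom called 0 lower, with 3 and 1 at an unadjusted p under 0.05. P4ha3, a prolyl hydroxylase subunit, had FPKM of 43.6 and 47.2 in vivo against 4.66 and 5.10 in vitro at 1 week, and was higher by 3.19 and 3.52. P3h2, a prolyl 3-hydroxylase, was higher by 2.01 and 2.67, and Colgalt2, a collagen galactosyltransferase of low level, by 2.94 and 2.10.

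**Figure D4:**
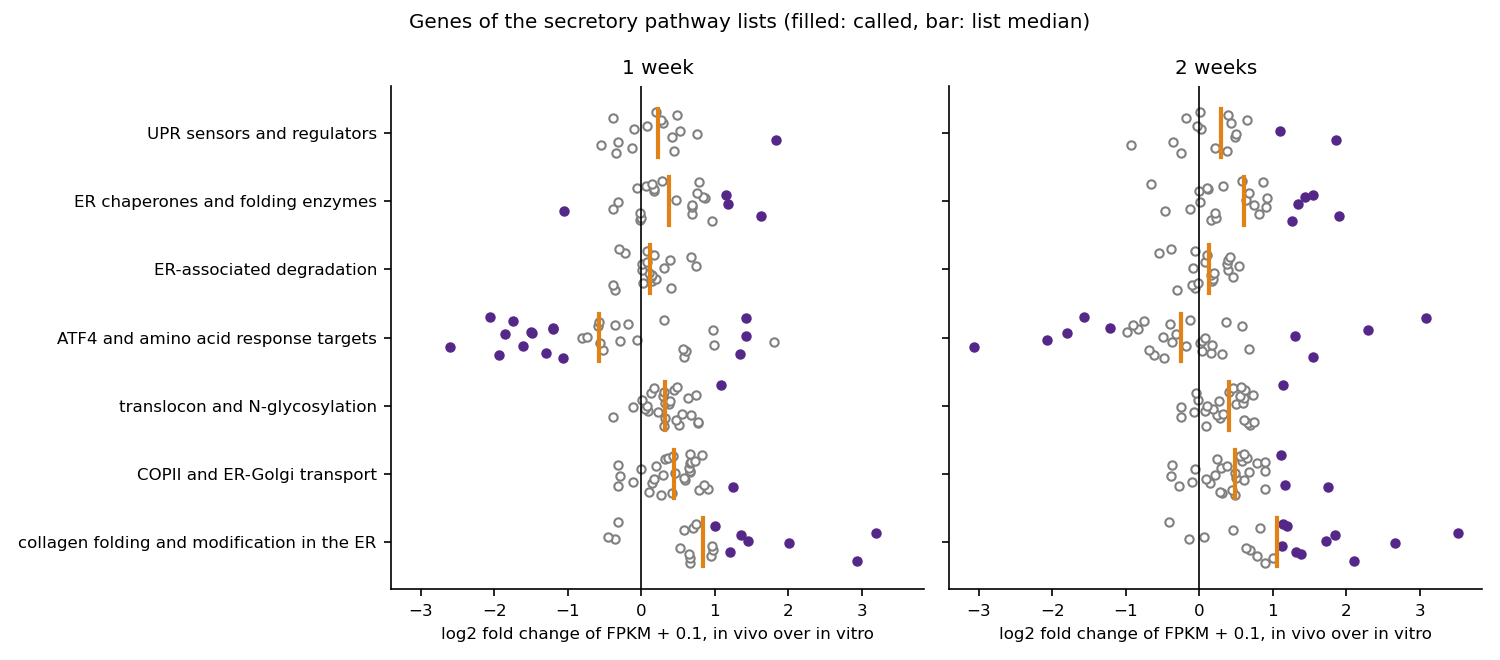
Log2 fold change of FPKM + 0.1, in vivo over in vitro, on the x axis for each tested gene of the 7 lists, at 1 week (left) and 2 weeks (right). Filled points are called, open points are not, and orange bars are list medians. The medians run from -0.58 for ATF4 and amino acid genes to 0.84 for collagen folding at 1 week, and from -0.25 to 1.06 at 2 weeks.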

How the data were processed

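RNA from FACS-sorted eGFP+ cells was sequenced in 8 libraries, and library preparation and mapping were done by the authors' sequencing provider. The submitters' processing notes name CASAVA, HISAT2 2.0.5 and mm10, and the counting tool is not given in the sources used here. The deposited values are FPKM, 1 column per library, and 0 columns were left over. Fragments were recovered from the FPKM and gene lengths, and 100% of values came out whole (within 0.01). The library size behind the FPKM was 0.863 to 1.15 times the fragments on genes, so the FPKM hold a scaling between libraries. Copies from PCR were not marked, so fragments may not be separate molecules.

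The 15708 genes that reached 0.5 FPKM in 2 or more libraries were compared on log2(FPKM + 0.1) by limma 3.58.1 in R 4.3.3, with all 4 groups in 1 fit and a variance trend. Adjusted p-values are Benjamini-Hochberg over all genes tested. Calls needed an adjusted p below 0.01 and a log2 fold change above 1 or below -1. The fit was also run on simulated counts with the same spread for all genes and changes in only some of them. The outcome is not given here, and that run does not measure the error rate in these libraries. The 10 genes, the 7 pathway lists and the 6 marker lists were chosen with earlier results of these data known. All 10 genes are named. From each list the text names at most 3 called genes of largest change at each week, or the 2 of highest mean FPKM where none was called, and the other genes it names were chosen after their values were seen. Promoters came from RefSeq (GRCm38.p6), and coordinates of genes are those of the deposited table. Tables and figures were made with Python 3.11.15, pandas 2.3.3, numpy 2.4.6, scipy 1.17.1 and matplotlib 3.10.9. Alternatives were other pseudocounts, filters, scalings and thresholds, limma voom on fragments, protein-coding genes only, only the libraries compared, no variance trend, the replicate number as a block, and each library left out in turn.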

Additional observations from a re-analysis of the deposited data

Results flagged for a closer look

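For the 3 genes given here the in vivo against in vitro difference itself was called as different between the weeks, by the interaction term of limma. For Trib3 it moved by 2.01 on the log2 scale, from -2.38 at 1 week to -0.37 at 2 weeks (adjusted p = 0.00382), and that call was lost in 6 of 8 fits with 1 library left out. For Asns it moved by 1.33, from -1.94 to -0.61 (adjusted p = 0.00706), a call kept in 0 of 8 such fits, at adjusted p = 0.0115 to 0.0314. For Stc2 it moved by 1.67, from 1.42 to 3.08 (adjusted p = 0.00307), a call kept in 3 of 8 such fits. The sizes of the 3 values stayed at 1.18 or above in those fits. Atf5, Phgdh, Shmt2, Slc7a5 and Atf3 were called by the same term, and Atf5 kept its call in 3 of 8 such fits. Over all genes tested, 0.573% were called upward and 1.15% downward.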

How the results depend on the processing

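Members higher in vivo numbered 1 at 1 week and 2 at 2 weeks. Both counts went to 0 with quantile normalization and to 0 without the scaling between libraries, and to 6 and 5 with no limit on the fold change. That last setting also gave 1 member lower with time in vivo in place of 0, and 2 higher and 2 lower with time in vitro in place of 0 and 1. The 1 upward member in the difference between the weeks went to 0 with no filter on low values, with no variance trend and with the replicate block. Deviations of same-numbered libraries correlated at -0.022 to -0.011, which gave no sign of pairing by number but cannot exclude batches shared in another way. With the block the other 9 counts of members stayed as reported (1, 1, 2, 1, 0, 0, 0, 1 and 0). With each library left out in turn, members lower in vivo at 2 weeks ranged from 0 to 1 and members upward in the difference between the weeks from 0 to 1. The other counts did not move: 1 and 1 at 1 week, 2 higher at 2 weeks, 0 and 0 with time in vivo, 0 and 1 with time in vitro, and 0 downward. The collagen load difference ran from 2.05 to 2.37.

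Of 1814 values of single genes under alternatives, 1767 kept their direction and their side of the call rule with its fold limit. Another 30 lost a call, 1 gained one and 16 changed sign. Passing by adjusted p alone is not followed in these counts, so its loss, as for Xbp1 at both weeks in the unscaled values, is not among them. The changes of sign with quantile normalization were Atf4 at 1 week (-0.29) and between the weeks (0.028), Xbp1 with time in vitro (-0.0058) and between the weeks (0.061), and Hspa5 between the weeks (0.18). Without the scaling between libraries they were Atf4 at 1 week (-0.33), Sdf2l1 at 2 weeks (-0.040) and Herpud1 at 2 weeks (-0.10). Both values of Atf4 at 1 week passed the p threshold (limma, adjusted p = 0.00522 and 0.00414). The unscaled one lay near the median of all genes there, which was -0.34. With 1 library left out, Atf4 at 1 week ranged from -0.034 to 0.066 (below 0 without replicate 2 of either 1-week group), Ddit3 with time in vivo from -0.397 to 0.064 (above 0 without in vivo 2-week replicate 1), and Pdia4 with time in vivo from -0.233 to 0.0045. Between the weeks, Hspa5 ranged from -0.194 to 0.065, Sdf2l1 from -0.259 to 0.061 and Xbp1 from -0.098 to 0.029. These and Pdia4 were above 0 without in vivo 1-week replicate 2, and Xbp1 also without in vivo 2-week replicate 1. The causes were not tested. Depth limited Trib3 most, with 55 fragments in its lowest library.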
